A study of Mus musculus with 9 samples.

Results

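Glycosyltransferases and sulfotransferases of the secretory pathway build and decorate the sugar chains of glycoproteins, glycolipids and proteoglycans. Rows of the deposited table of ribosome footprint counts were taken as members when their symbol began with Galnt, B3galt, B3gnt, B4gal, St3gal, St6gal, St8sia, Fut, Mgat, Chst, Hs2st, Hs3st or Hs6st, or was Wbscr17, Ext1 or Ext2. This rule used names only, was set with earlier results of these data known, and found 112 of 36410 rows. These rows stand for 109 distinct enzyme genes. Wbscr17 is an older symbol of Galnt17 and both symbols had a row, Fut4-ps1 is a pseudogene, and St8sia3os is a noncoding RNA next to St8sia3. The footprints came from 3 immortalized mouse striatal lines, STHdhQ7/Q7 (control), STHdhQ7/Q111 (HD-het) and STHdhQ111/Q111 (HD-homo), labelled C57/BL6 in strain and cultured without any differentiation step that the labels name. All lines carry a knock-in of exon 1 of Htt, the Huntington disease gene. The control line has 7 glutamine codons on both alleles, HD-het has 7 on one allele and 111 on the other, and HD-homo has 111 on both. Each group has 3 libraries from separate rounds of culture, and every culture was given cycloheximide for 10 min before lysis, which holds ribosomes on the mRNA. Every genotype is represented by a line of its own, derived from mouse embryos, so genotype and cell line cannot be told apart.

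Sugar chains on secreted and surface proteins are assembled in the Golgi by enzymes that each add a given sugar, or a sulfate, to a given acceptor. Polypeptide GalNAc-transferases start mucin-type O-glycans, MGAT enzymes branch N-glycans, and galactosyl-, sialyl- and fucosyltransferases extend and cap the chains. Exostosins polymerise heparan sulfate, and families of sulfotransferases then write the sulfation patterns to which growth factors and guidance cues bind. In the nervous system, polysialic acid, gangliosides and sulfated proteoglycans are known for their parts in cell adhesion, axon guidance and plasticity.

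Library totals ran from 22504543 to 41888701 counts, and a count of 0 in a library allows up to 3 counts, or between 0.0716 and 0.133 CPM. This limit and all counting intervals cover counting error only. Levels below are in CPM, footprint counts scaled to a common library size with TMM composition factors, and they are not divided by mRNA. A library is a bulk lysate, so a change in the mix of cells and a change in footprints per cell cannot be told apart. The labelled striatal identity was only partly borne out by markers, since Drd1 and Drd2 were at 0 in every library and the 12 striatal neuron markers summed to between 44.3 and 75.4 CPM. Of the 7 neural precursor markers, Vim held most of the summed level of 6017 to 9862 CPM. Nes, Sox2 and Pax6 were far lower in HD-homo, with means of 399.6, 51.2 and 17.3 CPM (control), 1086, 33.9 and 24.8 CPM (HD-het) and 7.01, 2.26 and 0.0759 CPM (HD-homo). Dlx1 and Dlx2 were highest in HD-homo, at means of 4.02 and 19.9 CPM. Fibroblast and mural cell markers (Col1a1, Col1a2, Col3a1, Pdgfrb, Acta2 and Tagln) summed to 6834 to 9750 CPM over the control libraries, 28683 to 30893 over those of HD-het and 5595 to 7144 over those of HD-homo. None of the 6 was at 0, and 5 of the 6 were highest in HD-het, while Col1a2 was highest in HD-homo. The 6 microglia markers summed to 18.4 to 26.6 CPM in HD-het and at most 6.45 CPM elsewhere, nearly all of it from Tmem119 (means of 5.43, 21.2 and 4.39 CPM in control, HD-het and HD-homo), with the others below 0.3 CPM and Cx3cr1 at 0. Of the 5 astrocyte markers, Slc1a3 alone was highest in HD-homo (means of 1.67, 0.964 and 11.7 CPM), and Aqp4 was at 0. HD-het is also the line in which 31 of the 68 tested members below were above both others, where 21.8% of all tested rows were. HD-homo was lowest in Nes, Sox2 and Pax6 and highest in Dlx1 and Dlx2. In that line 25 members were below both others, where 15.4% of all tested rows were. The part of any cell type in those results was not tested.

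Promoters are shown because their genes stand for the patterns described below. Hs6st1 and Chst2 were highest in HD-het and lowest in HD-homo, Chst11 was higher in both mutant lines than in control, and B4galt4 was highest in HD-homo. Each sequence is the 150 bases directly upstream of a RefSeq transcription start, 5′ to 3′ on the strand of the gene, in build GRCm38.p6. For Chst11 and B4galt4 this start lies downstream of the first base of the RefSeq gene, at 82984440 and 38742220. The Chst11 window is therefore inside the gene, and the B4galt4 window is partly inside it. Capitals mark a GC box, GGGCGG on either strand, the short element bound by Sp-family factors. None of the 4 windows overlaps an exon annotated by GENCODE release M21, and exons of RefSeq were not checked.

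Hs6st1, chr1:36068250-36068399, plus strand: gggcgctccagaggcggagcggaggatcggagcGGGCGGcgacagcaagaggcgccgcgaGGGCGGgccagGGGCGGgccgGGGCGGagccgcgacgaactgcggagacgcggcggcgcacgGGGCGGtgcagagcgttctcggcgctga

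Chst2, chr9:95407271-95407420, minus strand: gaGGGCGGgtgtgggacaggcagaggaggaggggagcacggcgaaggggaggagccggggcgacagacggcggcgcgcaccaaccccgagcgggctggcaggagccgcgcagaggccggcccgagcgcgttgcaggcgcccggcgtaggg

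Chst11, chr10:82985347-82985496, plus strand: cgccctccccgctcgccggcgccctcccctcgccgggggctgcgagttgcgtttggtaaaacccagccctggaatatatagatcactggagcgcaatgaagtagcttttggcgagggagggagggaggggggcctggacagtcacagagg

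B4galt4, chr16:38742109-38742258, plus strand: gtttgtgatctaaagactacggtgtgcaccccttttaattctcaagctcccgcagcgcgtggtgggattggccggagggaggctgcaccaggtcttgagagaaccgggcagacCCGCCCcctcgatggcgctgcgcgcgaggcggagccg

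The Hs6st1 window holds 5 GC boxes, those of Chst2 and B4galt4 hold 1 each, and that of Chst11 holds 0. Within 250 upstream bases Chst11 also has a GC box, which is not wholly inside the 150 bases shown. None of the 4 windows shown holds TATAAA on either strand. Over 250 upstream bases, a GC box was found in 57.4% of 68 promoter windows of the 52 tested members with an entry and in 57.9% of 12545 windows of the 9795 tested genes with one. The same share was 32.7% over all 32851 windows of the RefSeq table. TATAAA on either strand was found in 1.47% of the windows of tested members and 6.55% of those of all tested genes. Median GC content was 64.2% for tested members and 60.0% for all tested genes. A match to these letters is a description of the window and not a binding site.

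Of the 112 rows, 68 had enough counts to be tested together with all 12678 rows that passed the filter on low counts. They include Galnt17 and Wbscr17, so 1 gene is counted under both names. The filter asks for enough counts in only as many libraries as a line has, so a row can pass it through a single line. Each difference was tested by edgeR's quasi-likelihood method, with p-values adjusted over all 12678 rows and 0.05 as the threshold, and are given as log2 fold changes with standard errors (SE). The 3 lines differed in 58 of 68 members, or 85.3%, where 78.4% of all tested rows differed. Every comparison below shares a group of libraries with another, so their counts are set side by side and are not independent of each other.

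HD-het cells had more footprints on glycan enzymes than control cells. Footprints rose on 40 of 68 members (58.8%) in HD-het against control, while 31.0% of all tested rows rose. None of the 68 fell, while 29.1% of all tested rows fell. The count of 0 held with DESeq2, and St3gal4 alone was lower at an unadjusted edgeR p under 0.05. With no filter on low counts 1 member fell. It also became 1 without control replicate 2 or without HD-homo replicate 1, and 2 without HD-het replicate 3. A rise of at least 2-fold past the threshold was seen for 26 members, or 38.2%, against 13.9% of all rows, and a fall of that size for 0 members against 6.91% of all rows. The median log2 fold change was 0.75 over the members and 0.02 over all tested rows. Of the 25 members with a mean of at least 10 CPM, 20 rose and 0 fell, and of the 43 under 10 CPM 20 rose and 0 fell. The shares of all tested rows are not split by level.

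In HD-homo cells members moved both ways. Footprints rose on 19 members (27.9%) in HD-homo against control, where 23.3% of all rows rose, and fell on 25 members (36.8%), where 22.3% of all rows fell. At least 2-fold, 12 members rose and 18 fell, or 17.6% and 26.5%, against 8.94% and 8.27% of all rows. Between the mutant lines, 43 members (63.2%) were lower in HD-homo than in HD-het and 9 (13.2%) were higher, where 32.8% and 34.6% of all rows were lower and higher. At least 2-fold, these were 33 and 8 members, or 48.5% and 11.8%, against 16.2% and 11.1%. The median log2 fold change of the members was -0.33 in HD-homo against control and -0.94 in HD-homo against HD-het, and that of all tested rows was 0.02 in both. Of the 25 members with at least 10 CPM, 21 were lower in HD-homo than in HD-het and 0 were higher. Of the 43 under 10 CPM, 22 were lower and 9 were higher, and again the shares of all rows are not split by level.

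The order of the 3 lines can also be read member by member. HD-het was above both other lines, past the threshold in each comparison, for 31 members, where 21.8% of all tested rows had that order. HD-homo was above both others for 9 members (15.0% of all rows) and control for 0 (7.46% of all rows). HD-homo was below both others for 25 members (15.4% of all rows), control for 11 (9.54% of all rows) and HD-het for 0 (21.9% of all rows). Summed over all members with Wbscr17 left out, the level was 763 ± 107 CPM (control), 1463 ± 126 CPM (HD-het) and 687 ± 120 CPM (HD-homo) (SD, n = 3). The HD-het libraries, at 1387 to 1609 CPM, did not overlap those of either other line, and the control and HD-homo libraries overlapped.

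**Figure D1:**
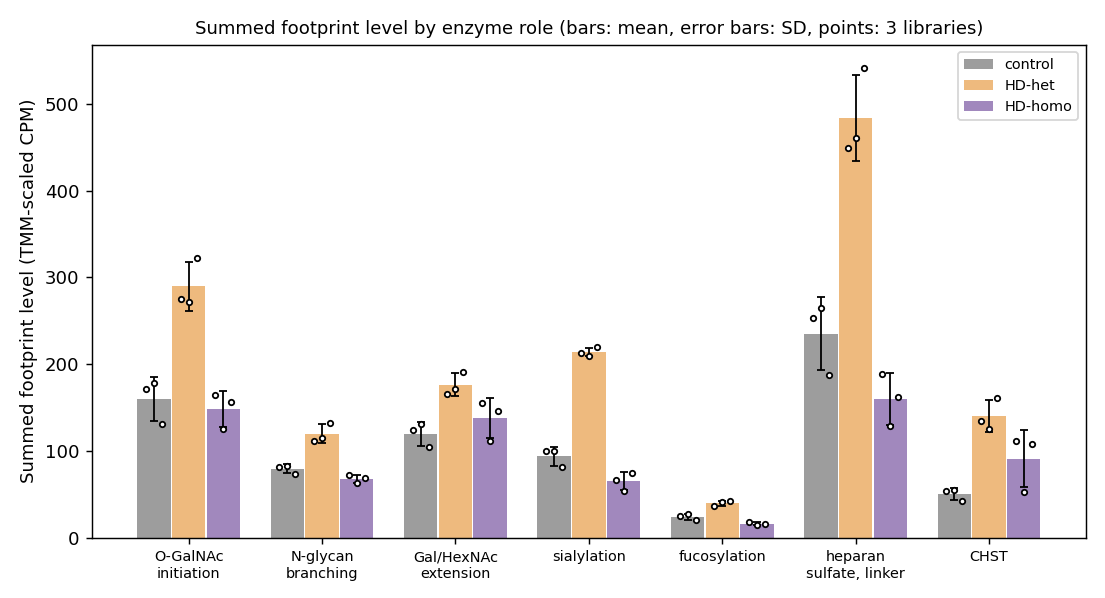
Summed footprint level (TMM-scaled CPM, y axis) of the members of each role in control, HD-het and HD-homo, with Wbscr17 left out; bars are means, error bars SD and points the 3 libraries. HD-het had the highest mean in all 7 roles, from 39.7 CPM for fucosylation to 484 CPM for heparan sulfate and linker enzymes.

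**Figure D2:**
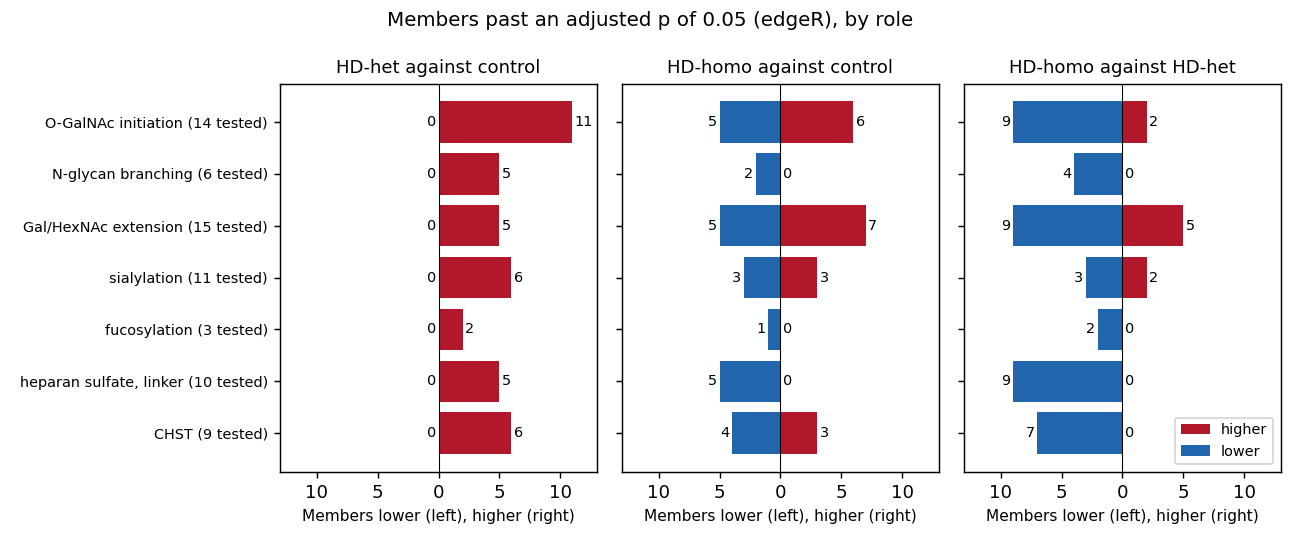
Number of members of each role lower (left, blue) or higher (right, red) past an adjusted p of 0.05 by edgeR in the 3 comparisons of lines. The left panel has 40 members on the higher side and 0 on the lower side; in the right panel 43 members lie on the lower side.

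The enzymes that start mucin-type O-glycans by placing N-acetylgalactosamine on serine or threonine rose in HD-het in 11 of 14 tested rows (78.6%, against 31.0% of all rows), and 0 fell. In HD-homo against control 6 rose (42.9%, against 23.3% of all rows) and 5 fell (35.7%, against 22.3% of all rows), and these background shares hold for the roles that follow. Their median log2 fold change was 1.04 in HD-het and 0.35 in HD-homo against control. Galnt17, a brain-enriched member of the family on chromosome 5 that was long called Wbscr17 after the Williams-Beuren syndrome region, was nearly without footprints in HD-homo. Its level was 7.18, 7.16 and 6.13 CPM in control replicates 1 to 3, 28.7, 27.4 and 40.5 CPM in HD-het and 0.0278, 0.0765 and 0.0887 CPM in HD-homo. All HD-het libraries lay above all control libraries, and HD-homo had 5 counts in its 3 libraries together. Galnt17 rose by 2.23 ± 0.16 in HD-het against control (log2, SE, adjusted p = 1.03e-06), and fell by 6.75 ± 0.34 in HD-homo against control (adjusted p = 3.74e-08). The row under the older symbol Wbscr17 held between 28.8% and 40.9% of the Galnt17 count in the control and HD-het libraries and had 1 count in HD-homo. Its summed count was 199 times as high in control as in HD-homo after scaling (95% exact interval 35.4 to 7900), and 1031 times as high in HD-het (184.6 to 40751). With so few counts its fitted log2 fold change in HD-homo against control moved from -7.17 to -9.13 without HD-homo replicate 3 and to -6.54 without HD-homo replicate 1. How the authors' counting split fragments between both names is not given in the sources used here.

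Galnt13, an isoenzyme of neural tissue, was near absent from control and present in both mutant lines. It stood at 0.267, 0.262 and 0.414 CPM (control), 9.07, 7.78 and 7.33 CPM (HD-het) and 5.20, 4.97 and 6.17 CPM (HD-homo). No library of any line overlapped with those of another. The rise was 4.69 ± 0.21 in HD-het (adjusted p = 3.27e-08) and 4.12 ± 0.21 in HD-homo (adjusted p = 4.95e-08), both against control. Galnt16 was highest in HD-het, with 0.497, 0.547 and 0.263 CPM in control libraries, 4.48, 4.84 and 8.75 CPM in HD-het libraries and 0.139, 0.191 and 0.177 CPM in HD-homo libraries. Its rise in HD-het was 3.72 ± 0.33 (adjusted p = 3.85e-06). Its fall of 1.41 ± 0.53 in HD-homo against control was close to the threshold (adjusted p = 0.0475) and was lost on leaving out control replicate 1 (0.0951) or 2 (0.162), or HD-homo replicate 1 (0.144), 2 (0.0856) or 3 (0.0968). Galnt12 was highest in HD-homo, at 1.07, 1.02 and 0.941 CPM in the control libraries, 1.52, 1.24 and 1.56 CPM in those of HD-het and 4.34, 2.83 and 3.06 CPM in those of HD-homo, and rose by 1.76 ± 0.21 in HD-homo against control (adjusted p = 4.55e-05). In HD-het it was 0.49 ± 0.23 over control (adjusted p = 0.0858), which passed in the fit of only the 6 libraries compared (0.0440) and without HD-homo replicate 1 (0.0451). In CPM the highest member of the family over all libraries was Galnt2, at 40.8, 44.1 and 33.0 CPM (control), 71.7, 73.4 and 82.1 CPM (HD-het) and 50.0, 36.7 and 41.2 CPM (HD-homo). HD-het lay above both other lines without overlap, a rise of 0.94 ± 0.13 over control (adjusted p = 0.000107), while HD-homo and control overlapped. The coding sequence of Galnt2 shares 92.8% of its 26-base words with the predicted gene Gm20388, so its count is uncertain where fragments were split between them.

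N-glycan branching enzymes rose in HD-het in 5 of 6 tested members (83.3%), and in HD-homo 0 rose and 2 fell (33.3%) against control. MGAT1 adds the N-acetylglucosamine that opens the way to hybrid and complex N-glycans. Mgat1 was at 29.6, 29.6 and 26.6 CPM in control libraries, 39.6, 39.5 and 48.9 CPM in HD-het libraries and 34.8, 30.9 and 33.0 CPM in HD-homo libraries. HD-het lay above the other lines, by 0.57 ± 0.10 over control (adjusted p = 0.000621). The libraries of HD-homo lay above those of control without overlap, yet the difference of 0.20 ± 0.10 did not pass the threshold (adjusted p = 0.138). Of 3 fucosyltransferases tested, 2 rose in HD-het and 1 fell in HD-homo, too few to set against the shares of all rows. FUT8 puts the core fucose on N-glycans. Fut8 was at 13.9, 16.5 and 11.8 CPM in the control libraries, 21.9, 24.9 and 25.5 CPM in those of HD-het and 8.01, 5.54 and 7.23 CPM in those of HD-homo, with no overlap between lines. It rose by 0.77 ± 0.15 in HD-het (adjusted p = 0.00098) and fell by 1.02 ± 0.16 in HD-homo (adjusted p = 0.000301).

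Enzymes that extend chains with galactose or N-acetylhexosamines had the lowest median log2 fold change of the 7 roles in HD-het against control, 0.32. In HD-het 5 of 15 rose (33.3%, near the 31.0% of all rows) and 0 fell, and in HD-homo against control 7 rose (46.7%) and 5 fell (33.3%). B4galt1, the main galactosyltransferase of N-glycan antennae, was at 36.4, 38.7 and 29.1 CPM (control), 61.5, 60.0 and 69.1 CPM (HD-het) and 49.2, 37.8 and 53.3 CPM (HD-homo). The rise in HD-het over control was 0.87 ± 0.14 (adjusted p = 0.000285). In HD-homo, whose libraries overlapped those of control, the rise of 0.43 ± 0.14 passed the threshold with all libraries (adjusted p = 0.0275) and not in the fit of only the 6 libraries compared (0.0543), nor without control replicate 1 (0.0591) or 3 (0.104) or HD-homo replicate 1 (0.0715) or 3 (0.105). Against HD-het, HD-homo was lower by 0.44 ± 0.14 (adjusted p = 0.0151), which missed the threshold without HD-het replicate 3 (0.0552).

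B3gnt5, whose product starts lacto-series glycolipids, had 3.21, 3.76 and 3.76 CPM in control and 3.49, 4.59 and 4.45 CPM in HD-het, and a single count in the 3 HD-homo libraries. Control and HD-het overlapped, and HD-homo lay far below both. After scaling, the summed count was 305 times as high in control as in HD-homo (95% exact interval 54.4 to 12097) and 356 times as high in HD-het (63.5 to 14115). The fitted log2 fold change of -7.80 ± 0.43 against control (adjusted p = 8.45e-08) moved to -9.73 without HD-homo replicate 2, which holds that count, and to -7.17 without HD-homo replicate 1. B3gnt9, of the same family, ran the other way, at 0.229, 0.190 and 0.113 CPM in control libraries, 0.456, 0.358 and 0.804 CPM in HD-het libraries and 2.36, 2.14 and 2.40 CPM in HD-homo libraries. No line overlapped another, and the rises over control were 1.50 ± 0.40 (adjusted p = 0.0067) and 3.65 ± 0.32 (adjusted p = 3.77e-06). B4galnt1, which makes the gangliosides GM2 and GD2, was highest in HD-homo, with 5.23, 4.38 and 4.06 CPM in the control libraries, 3.49, 3.49 and 5.11 CPM in those of HD-het and 10.3, 7.57 and 9.67 CPM in those of HD-homo. HD-homo lay above both other lines, which overlapped each other, and exceeded control by 1.01 ± 0.18 (adjusted p = 0.000807). B3gntl1 and B4galt4 also rose in HD-homo against control, by 1.16 ± 0.18 (adjusted p = 0.000344) and 0.74 ± 0.14 (adjusted p = 0.00137), and neither passed the threshold in HD-het. B4galt4, whose promoter is printed above, was at 4.35, 4.42 and 4.21 CPM (control), 4.48, 5.28 and 5.82 CPM (HD-het) and 6.26, 7.46 and 8.12 CPM (HD-homo). Annotated genes overlap B3gnt9 (D230025D16Rik), B4galnt1 (Slc26a10), B3gntl1 (Tbcd) and B4galt4 (Gm15575), and the use of strand in counting is not given in the sources used here.

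**Figure D3:**
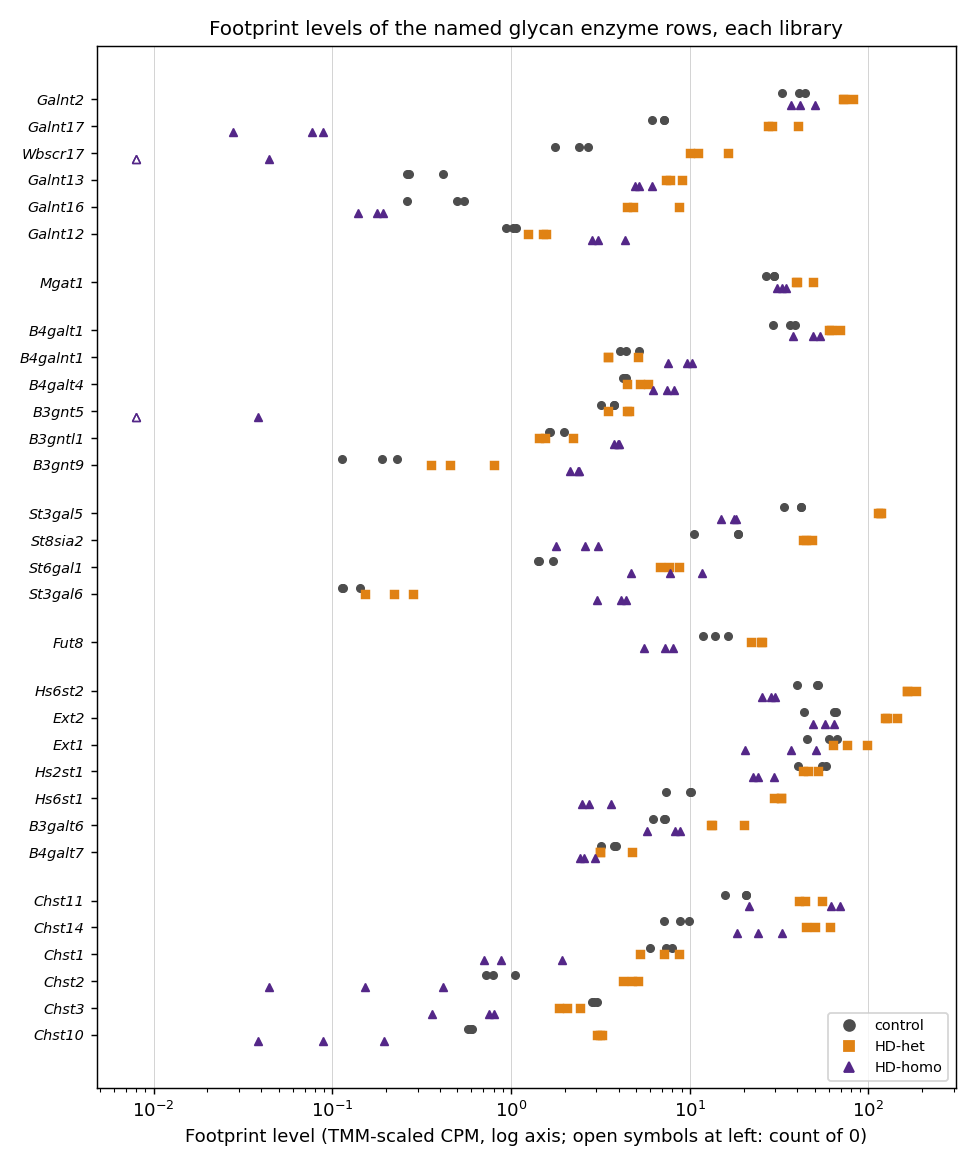
Footprint level (TMM-scaled CPM, log x axis) of 31 named rows in each of the 9 libraries, grouped by role from top to bottom; circles are control, squares HD-het and triangles HD-homo, and open symbols at the left edge are counts of 0. HD-het squares lie to the right for most rows, and the HD-homo triangles of Galnt17, Wbscr17 and B3gnt5 lie below 0.1 CPM.

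Sialyltransferases cap chains with sialic acid. They rose in HD-het in 6 of 11 tested members (54.5%). In HD-homo 3 rose and 3 fell against control, 27.3% each way, near the 23.3% and 22.3% of all rows. St3gal5, the GM3 synthase with which most gangliosides begin, was at 41.7, 41.7 and 33.6 CPM in control libraries, 116, 113 and 118 CPM in HD-het libraries and 15.0, 17.6 and 18.2 CPM in HD-homo libraries. The lines were fully separate, with a rise of 1.57 ± 0.11 in HD-het (adjusted p = 6.44e-07) and a fall of 1.21 ± 0.11 in HD-homo (adjusted p = 4.27e-06). St8sia2, a polysialyltransferase that acts on the neural cell adhesion molecule in the developing brain, had the same order of lines. It was at 18.6, 18.6 and 10.6 CPM in the control libraries, 48.4, 44.5 and 43.2 CPM in those of HD-het and 2.59, 3.06 and 1.77 CPM in those of HD-homo, again with no overlap. It rose by 1.51 ± 0.20 in HD-het (adjusted p = 7.01e-05) and fell by 2.68 ± 0.24 in HD-homo (adjusted p = 3.64e-06). St8sia4, the other polysialyltransferase gene, had too few counts to be tested, with 6, 14 and 6 in control, 0, 1 and 0 in HD-het and 0 in every HD-homo library.

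The other sialyltransferases named here rose in HD-homo. St6gal1, which sialylates N-glycan antennae, was at 1.41, 1.71 and 1.43 CPM (control), 6.83, 7.62 and 8.75 CPM (HD-het) and 7.73, 4.66 and 11.8 CPM (HD-homo). Both mutant lines lay above control and overlapped each other, and the rises were 2.33 ± 0.30 (adjusted p = 5.11e-05) and 2.38 ± 0.30 (adjusted p = 5.66e-05). St3gal6, which sialylates terminal galactose, had between 3 and 8 counts in each control and HD-het library. Its level was 4.42, 3.02 and 4.12 CPM in HD-homo, which exceeded control by 4.89 ± 0.29 (adjusted p = 1.47e-07) and HD-het by 4.14 ± 0.27 (adjusted p = 2.14e-07). St3gal6 passed the filter on low counts only through its HD-homo libraries, the line in which it is high. It also overlaps the annotated genes Dcbld2 and Gm33475, and the use of strand in counting is not given. St6galnac2, chosen after its values were seen, had a count of 0 in every control library, 5, 5 and 7 counts in HD-het and 18, 16 and 22 in HD-homo. Against the limit of 3 counts per library HD-het was at least 2.20-fold above control and HD-homo at least 6.99-fold above it. St6galnac2 was chosen by its values and passed the filter only through its HD-homo libraries, so no p-value is given. B4galnt1 extends a branch of the ganglioside pathway that St3gal5 starts, so their levels per coding length were set side by side, also after the values were seen. B4galnt1 stood at 0.0909 ± 0.00828 of St3gal5 for control, 0.0270 ± 0.00571 for HD-het and 0.427 ± 0.101 for HD-homo (SD, n = 3), with no overlap between lines.

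Heparan sulfate and linker enzymes had the largest mean summed CPM of the 7 roles in every line. The means were 235 ± 41.7 CPM (control), 484 ± 50.1 CPM (HD-het) and 160.1 ± 30.2 CPM (HD-homo). These sums are not divided by coding length, so they do not rank the roles per coding length. In HD-homo the libraries, at 129 to 189 CPM, overlapped those of O-GalNAc initiation, at 125 to 164 CPM. The heparan sulfate and linker enzymes rose in HD-het in 5 of 10 tested members (50.0%), and 0 fell. In HD-homo 0 rose and 5 fell (50.0%) against control, and 9 of 10 were lower than in HD-het (90.0%, against 32.8% of all rows). Their median log2 fold change in HD-homo against HD-het was -1.91, or -1.69 with Hs3st3a1 set at its lower bound. EXT1 and EXT2 form the polymerase of the chain. Ext2 was at 64.3, 65.5 and 43.5 CPM in control libraries, 127, 124 and 144 CPM in HD-het libraries and 64.3, 49.1 and 57.5 CPM in HD-homo libraries. It rose by 1.19 ± 0.15 in HD-het (adjusted p = 5.62e-05), while HD-homo and control overlapped. Ext1, its partner, was at 60.0, 67.0 and 45.2 CPM in the control libraries, 63.5, 75.6 and 97.6 CPM in those of HD-het and 50.8, 20.4 and 37.0 CPM in those of HD-homo. Both mutant lines overlapped control, and the differences of 0.46 ± 0.27 (adjusted p = 0.17) and -0.67 ± 0.28 (adjusted p = 0.069) did not pass the threshold. The first passed in the edgeR fit of only the 6 libraries compared (adjusted p = 0.0434). The second passed with DESeq2 (-0.67, adjusted p = 0.0355), with no filter on low counts (-0.69, adjusted p = 0.0398), and without control replicate 3 (-0.81, adjusted p = 0.0478) or HD-homo replicate 1 (-1.01, adjusted p = 0.0114).

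Among the sulfotransferases of the chain, HS6ST enzymes sulfate the sixth carbon of glucosamine and HS2ST1 sulfates the uronic acid. Hs6st2, the member with the highest level in HD-het in CPM, was at 51.2, 52.1 and 39.7 CPM (control), 164, 165 and 186 CPM (HD-het) and 28.5, 25.3 and 29.9 CPM (HD-homo). The lines did not overlap, with a rise of 1.84 ± 0.12 in HD-het (adjusted p = 3.77e-07) and a fall of 0.77 ± 0.12 in HD-homo (adjusted p = 0.000231). Hs6st1 was at 10.2, 9.99 and 7.34 CPM in control libraries, 32.6, 29.5 and 32.4 CPM in HD-het libraries and 3.64, 2.71 and 2.48 CPM in HD-homo libraries. This gene, with the promoter of 5 GC boxes above, rose by 1.78 ± 0.15 in HD-het (adjusted p = 3.02e-06) and fell by 1.62 ± 0.17 in HD-homo (adjusted p = 1.43e-05), without overlap. Hs2st1 was at 55.1, 57.9 and 40.3 CPM in the control libraries, 43.0, 45.7 and 51.9 CPM in those of HD-het and 29.4, 22.5 and 24.0 CPM in those of HD-homo. HD-het and control overlapped, with a difference of -0.13 ± 0.15 (adjusted p = 0.47), and HD-homo fell by 1.01 ± 0.15 (adjusted p = 0.000199). Per coding length, the 3 HS6ST genes together stood at 0.677 ± 0.0263 of Hs2st1 for control, 2.63 ± 0.134 for HD-het and 0.719 ± 0.0662 for HD-homo (SD, n = 3), a ratio chosen after the values were seen. The HD-het ratio lay above those of the other lines in all 3 libraries, and the control and HD-homo ratios overlapped.

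The linker that joins these chains to the core protein is built in part by galactosyltransferases I and II. B3galt6 was at 7.22, 7.26 and 6.21 CPM (control), 13.2, 13.2 and 20.1 CPM (HD-het) and 8.82, 5.77 and 8.29 CPM (HD-homo), and rose by 1.16 ± 0.20 in HD-het (adjusted p = 0.000381). HD-homo overlapped control. B4galt7 was at 3.17, 3.85 and 3.76 CPM in control libraries, 3.15, 3.14 and 4.78 CPM in HD-het libraries and 2.95, 2.45 and 2.57 CPM in HD-homo libraries, and passed the threshold in no comparison. Against HD-het its difference in HD-homo was -0.45 ± 0.19 (adjusted p = 0.0584), which passed with at least 10 counts required in every library (0.0452) and without HD-het replicate 1 (0.0454) or 2 (0.0418), and against control the difference of -0.43 ± 0.19 (adjusted p = 0.0859) passed without HD-het replicate 3 (0.0321). Hs3st3a1, which adds a rarer sulfate to glucosamine, was chosen after its values were seen. It had 8, 16 and 10 counts (control), 8, 19 and 14 (HD-het) and 0 in every HD-homo library. HD-homo was at least 3.21-fold lower than control and at least 4.49-fold lower than HD-het. Hs3st3a1 was chosen by its values and passed the filter only through control and HD-het libraries, so no p-value is given. The coding sequence of Hs3st3a1 shares 43.7% of its 26-base words with its paralog Hs3st3b1 or with Hs3st6.

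**Figure D4:**
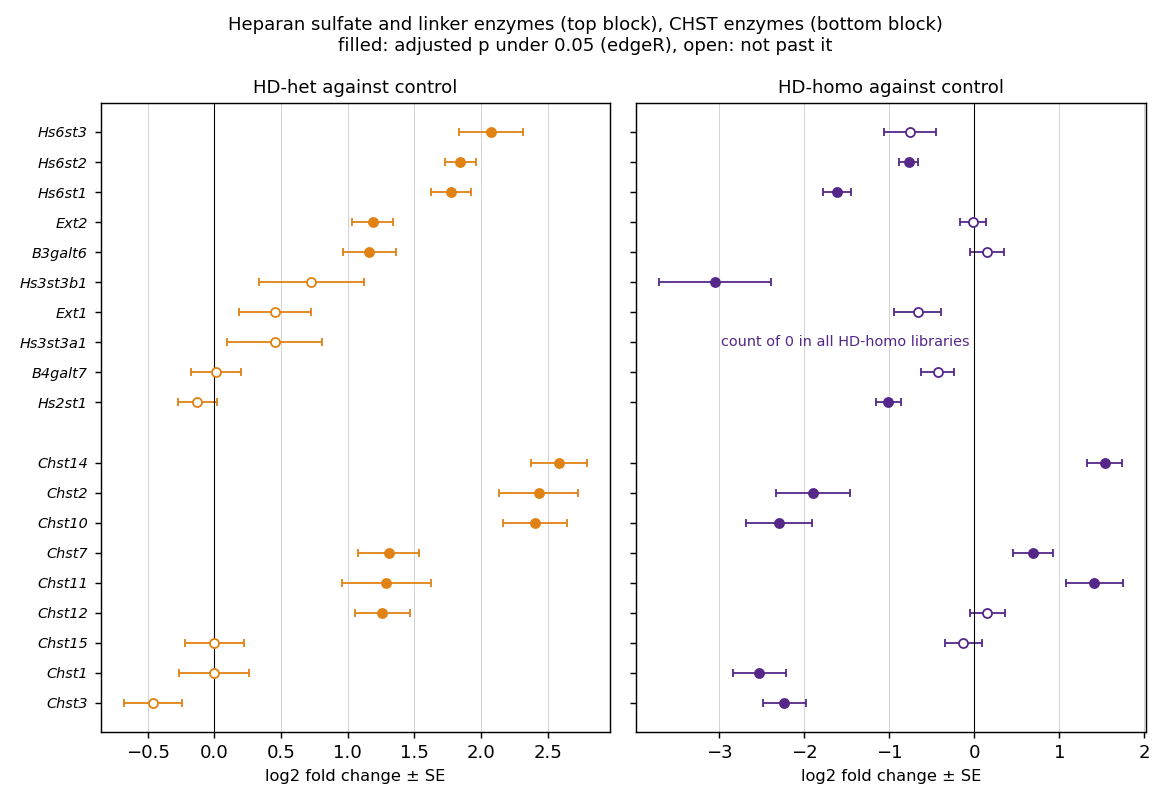
Log2 fold change ± SE (x axis, on a different scale in each panel) of the tested heparan sulfate and linker enzymes and of the CHST sulfotransferases against control, in HD-het (left) and HD-homo (right); filled points passed an adjusted p of 0.05 by edgeR. Hs6st1, Hs6st2, Chst2 and Chst10 lie to the right of 0 in HD-het and to the left in HD-homo, and Hs3st3a1 has no point in HD-homo, where its count was 0.

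The CHST sulfotransferases act on chondroitin, dermatan and keratan sulfate and on other glycans. They rose in HD-het in 6 of 9 tested members (66.7%), each by at least 2-fold, and 0 fell, with a median log2 fold change of 1.29. In HD-homo against control 3 rose (33.3%) and 4 fell (44.4%). Chst14 and Chst11 encode enzymes that sulfate the fourth carbon of N-acetylgalactosamine, in dermatan and in chondroitin. Chst14 was at 8.78, 9.85 and 7.19 CPM in the control libraries, 50.1, 44.8 and 61.1 CPM in those of HD-het and 32.7, 18.3 and 24.0 CPM in those of HD-homo, with no overlap. It rose by 2.59 ± 0.21 in HD-het (adjusted p = 2.12e-06) and by 1.54 ± 0.21 in HD-homo (adjusted p = 0.0001). Chst11 was at 20.6, 20.6 and 15.8 CPM (control), 44.3, 40.7 and 54.9 CPM (HD-het) and 61.4, 21.4 and 69.2 CPM (HD-homo). Both mutant lines lay above control, by 1.29 ± 0.33 (adjusted p = 0.00591) and 1.41 ± 0.33 (adjusted p = 0.005). HD-homo replicate 2 was far below the other HD-homo libraries, and without it HD-homo exceeded HD-het by 0.49 (adjusted p = 0.0119), where with it the difference was 0.12 ± 0.32 (adjusted p = 0.753). Per coding length Chst14 stood at 0.424 ± 0.0236 of Chst11 for control, 1.05 ± 0.0138 for HD-het and 0.542 ± 0.242 for HD-homo (SD, n = 3), a ratio also chosen after the values were seen. The HD-homo ratios spanned those of control and lay below those of HD-het.

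Other CHST genes fell in HD-homo. CHST10 adds the sulfate of the HNK-1 epitope of neural adhesion molecules, and CHST2 sulfates N-acetylglucosamine. Chst10 was at 0.573, 0.595 and 0.602 CPM in control libraries, 3.15, 3.25 and 3.03 CPM in HD-het libraries and 0.195, 0.0382 and 0.0887 CPM in HD-homo libraries. Chst2 was at 0.726, 1.05 and 0.790 CPM in the control libraries, 4.78, 5.12 and 4.21 CPM in those of HD-het and 0.417, 0.153 and 0.0444 CPM in those of HD-homo. For both genes the lines did not overlap and HD-het was highest, with rises of 2.41 ± 0.24 (adjusted p = 8.57e-06) and 2.43 ± 0.30 (adjusted p = 3.81e-05) over control. In HD-homo, Chst10 fell by 2.29 ± 0.39 (adjusted p = 0.000557) and Chst2 by 1.90 ± 0.43 (adjusted p = 0.00424), and without HD-homo replicate 1 these values were -3.17 and -3.04. Chst1, a sulfotransferase of keratan sulfate, was at 7.33, 7.95 and 6.02 CPM (control), 7.14, 8.75 and 5.25 CPM (HD-het) and 1.92, 0.879 and 0.710 CPM (HD-homo). HD-het overlapped control, and HD-homo fell by 2.53 ± 0.31 (adjusted p = 4.9e-05), or by 3.15 without HD-homo replicate 1. Chst3, which sulfates the sixth carbon in chondroitin, was at 3.02, 2.90 and 2.82 CPM in control libraries, 2.43, 2.06 and 1.84 CPM in HD-het libraries and 0.362, 0.803 and 0.754 CPM in HD-homo libraries. HD-homo lay below both other lines, by 2.23 ± 0.26 against control (adjusted p = 3.21e-05). The difference in HD-het was -0.46 ± 0.22 (adjusted p = 0.0913), which passed the threshold in the fit of only the 6 libraries compared (0.0232) and without HD-homo replicate 1 (0.0273). Control and HD-het libraries of Chst3 did not overlap.

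Levels can be compared between members only per coding length, here in CPM per kilobase of coding sequence with SD over 3 libraries. In control the highest member was Hs2st1, at 47.8 ± 8.83, followed by St3gal5 at 31.4 ± 3.75 and B4galt1 at 29.0 ± 4.21, and the latter pair did not differ beyond their spread. In HD-het the order was St3gal5 at 93.2 ± 2.01, Hs6st2 at 87.6 ± 6.40 and Ext2 at 61.2 ± 4.98, of which St3gal5 and Hs6st2 did not differ beyond their spread. Hs2st1 stood at 43.9 ± 4.29, within the spread of Chst14, Galnt2 and Chst11. In HD-homo Chst11 led at 48.0 ± 24.3, a spread that covers the next members, B4galt1 at 39.1 ± 6.71 and B4galt5 at 33.3 ± 7.58. The 10 members with the highest mean CPM in a line held 58.1% (control), 58.9% (HD-het) and 56.9% (HD-homo) of the summed level.

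Genes that work beside the members were counted from lists written from general knowledge, with earlier results of these data known. They are set against the same shares of all rows, 31.0% higher and 29.1% lower in HD-het and 23.3% higher and 22.3% lower in HD-homo. Of 13 tested heparan sulfate genes outside the members, 9 rose (69.2%) and 0 fell in HD-het against control, and 2 rose and 2 fell in HD-homo (15.4% each). Sulf1, an extracellular sulfatase that removes sulfate from the sixth carbon of glucosamine, had 2, 7 and 1 counts (control), 758, 952 and 709 (HD-het) and 110, 45 and 64 (HD-homo). It rose by 8.08 ± 0.31 in HD-het (adjusted p = 1.48e-08) and by 4.55 ± 0.39 in HD-homo (adjusted p = 2.64e-06), without overlap between lines. Of 9 chondroitin and dermatan sulfate genes, 7 rose (77.8%) and 1 fell (11.1%) in HD-het, and 3 rose (33.3%) and 1 fell (11.1%) in HD-homo. Chsy1, a chondroitin polymerase, was at 20.5, 20.6 and 16.9 CPM in the control libraries, 58.3, 59.1 and 66.2 CPM in those of HD-het and 17.9, 10.7 and 15.3 CPM in those of HD-homo. It was lower in HD-homo than in HD-het by 2.06 ± 0.16 on the log2 scale (adjusted p = 9.08e-07). Chsy3, its paralog, was at 0.420, 0.523 and 0.301 CPM (control), 18.2, 19.9 and 26.9 CPM (HD-het) and 2.31, 1.38 and 2.79 CPM (HD-homo). The rises over control were 5.64 ± 0.29 (adjusted p = 7.85e-08) and 2.32 ± 0.33 (adjusted p = 0.000164), with every library of a mutant line above every control library.

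In HD-het against control the median log2 fold change of the remaining lists ran from 0.03 to 0.77. It was 0.87 for the heparan sulfate list and 1.32 for the chondroitin and dermatan sulfate list. Of 6 Golgi and endoplasmic reticulum mannosidases that trim N-glycans, 5 rose (83.3%) and 1 fell (16.7%) in HD-het, and 1 rose (16.7%) and 2 fell (33.3%) in HD-homo. Man2a2 was at 3.70, 4.54 and 4.29 CPM in control libraries, 11.5, 10.1 and 13.3 CPM in HD-het libraries and 1.64, 1.61 and 2.35 CPM in HD-homo libraries, and was lower in HD-homo than in HD-het by 2.65 ± 0.18 (adjusted p = 2.70e-07). Of 11 genes of O-mannose glycans, 8 rose (72.7%) and 2 fell (18.2%) in HD-het, and 0 rose and 4 fell (36.4%) in HD-homo. Of 5 tested genes that extend or branch mucin-type O-glycans, 2 rose and 1 fell in both mutant lines against control, too few to set against those shares. Gcnt4, a branching enzyme, was at 1.07, 0.833 and 0.978 CPM in the control libraries, 6.19, 7.01 and 7.52 CPM in those of HD-het and 13.1, 14.0 and 9.36 CPM in those of HD-homo. It rose by 2.86 ± 0.20 (adjusted p = 8.08e-07) and 3.68 ± 0.20 (adjusted p = 5.96e-08) over control. Of 25 genes that supply nucleotide sugars and sulfate donors, 9 rose (36.0%) and 8 fell (32.0%) in HD-het, near the shares of all rows, and 9 rose (36.0%) and 2 fell (8.00%) in HD-homo, with median log2 fold changes of 0.03 and 0.16. Gfpt2, which commits fructose phosphate to the hexosamine pathway, was at 1.83, 1.76 and 1.54 CPM (control), 2.81, 3.00 and 2.03 CPM (HD-het) and 33.5, 23.9 and 26.7 CPM (HD-homo). Its rise in HD-homo was 4.03 ± 0.18 over control (adjusted p = 1.51e-08) and 3.40 ± 0.17 over HD-het (adjusted p = 3.00e-08).

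The 44 members that were not tested were low in all lines. A count of 0 in every library was found for 12 of them, B3galt2, B3gnt6, Chst5, Fut4-ps1, Fut7, Galntl5, Hs3st2, Hs3st4, Mgat4c, St6gal2, St8sia3 and St8sia3os. Another 22 had counts that reached at most 3 in any library. These were B3galt5, B3gnt7, B3gnt8, Chst13, Chst8, Chst9, Fut1, Fut2, Fut9, Galnt5, Galnt6, Hs3st5, Hs3st6, Mgat4d, Mgat4e, Mgat5b, St6galnac1, St6galnac3, St6galnac5, St8sia1, St8sia5 and St8sia6. The last 10 exceeded 3 counts in some library, up to 14 for St8sia4, and were B3gnt3, B3gnt4, B4galnt3, Chst4, Fut4, Galnt14, Galnt15, Galntl6, Hs3st1 and St8sia4. St8sia1, which makes the ganglioside GD3, was among the members with at most 1 count in a library.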

How the data were processed

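The authors deposited a table of whole-number counts, with a row for each gene symbol and a column for each library, neither normalized nor pooled. The labels state an 80S monosome fraction and fragments of 26 to 32 nt, and the submitters' processing notes name cutadapt, Bowtie 1.0.1 and mm10. The counting program, annotation and strand setting are not given in the sources used here. Of all symbols, 26 had been turned into a date. Members and gene lists were chosen with earlier results of these data known. Named members are those past the threshold with at least 2 CPM in the higher group that are among the 8 largest rises or falls of a comparison, the highest of each role by mean CPM, and Wbscr17, Ext1, Ext2, Mgat1, Fut8, Hs2st1, B4galt7 and B3galt6. Pathway genes needed a 4-fold change and 5 CPM.

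Counts of all 9 libraries were fitted in R 4.3.3 with edgeR 4.0.16 (limma 3.58.1), with TMM factors, the filterByExpr filter, group means as the only terms and Benjamini-Hochberg adjustment over 12678 rows. Intervals of count ratios are exact and at 95%. The scripts were tested on simulated data. Coding lengths are the longest coding sequence in GENCODE M21, and coordinates and promoters are from RefSeq (GRCm38.p6), where all 112 members matched. Alternatives were RLE factors, total counts, DESeq2 1.42.0, other filters, only the 6 libraries compared, a table without older symbols, the replicate number as a block and leaving out each library.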

Additional observations from a re-analysis of the deposited data

How the results depend on the processing

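Of 1548 alternative values for 93 comparisons of named members, 1499 kept direction and side of the threshold, 13 lost a call, 14 gained one and 22 changed sign. Counts of members changed by more than 1.5 times in these cases. Members lower in HD-het than in control went from 0 to 1 with total counts, to 1 with no filter and to 2 in the fit of only the 6 libraries compared, and ranged from 0 to 2 without a library. With at least 10 counts in every library, where 48 members were tested, 16 were lower in HD-homo than in control and 5 exceeded their HD-het level there. Without a library, members that rose in HD-het ranged from 36 to 43, those that rose and fell in HD-homo against control from 15 to 20 and from 21 to 28, and those lower in HD-homo than in HD-het from 39 to 44.

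Every change of sign was of a difference that was not called, with all libraries or in the fit that changed its sign. Values after the change reached -0.30, for St6gal1 in HD-homo against HD-het without HD-homo replicate 3. Chst11 in HD-homo against HD-het kept its sign without HD-homo replicate 2 and passed the threshold there, at 0.49. Log2 fold changes of Chst1 in HD-het against control were 0.012 with RLE factors, 0.0075 with DESeq2, 0.027 with at least 10 counts in every library and 0.0031 with 6 libraries, those of B4galt7 were -0.0399 with total counts and -0.020 with no filter, and that of Ext2 in HD-homo against control was 0.0076 with total counts. Without a library, values in HD-het against control ranged from -0.25 to 0.059 for B3gntl1, -0.22 to 0.11 for B4galt7 and -0.21 to 0.14 for Chst1. In HD-homo they ranged from -0.19 to 0.079 for Ext2 and -0.0133 to 0.22 for Galnt2 against control, and from -0.16 to 0.49 for Chst11 and -0.30 to 0.33 for St6gal1 against HD-het. The cause was not tested.

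The replicate number gave no sign of pairing: deviations of same-numbered libraries correlated between -0.356 and 0.175. With the replicate number as a block, the calls of B4galt1 and Galnt16 in HD-homo against control missed the threshold (adjusted p = 0.0544 and 0.0567 by edgeR), and no other call of a named member changed. Depth limits the 44 members that were not tested and the bounds given for lines at a count of 0.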
